A study of Mus musculus with 12 samples.

Results

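A set of 8 genes of sterol metabolism were followed in nascent and total RNA of LPS-stimulated mouse macrophages: the sterol regulators Srebf2, Insig1 and Insig2, the cholesterol synthesis enzymes Hmgcs1, Idi1, Sqle and Cyp51, and the oxysterol enzyme Ch25h. They were chosen by name and are 8 of 19938 genes with a value. A gene's value is the log2 intensity of a probe set annotated to that gene alone, and where a gene had several such probe sets, of the one with the highest mean over 12 arrays. This applied to Idi1, which had 2. The working name of the group also mentions uptake, but none of the 8 encodes an uptake receptor, and uptake genes are given below with the rest of the pathway.

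The cells were primary macrophages differentiated in vitro out of bone marrow of C3H/HeN mice. They had been expanded with IL-3, IL-6, SCF and conditioned medium as a source of M-CSF, and were stimulated without these. In all, 3 conditions were compared: unstimulated cells (0 min), 45 min of LPS and 270 min of LPS, at 100 ng/ml. LPS is a component of Gram-negative bacterial membranes that is sensed by Toll-like receptor 4. All cultures, unstimulated ones included, received 200 µM 4-thiouridine for their last 35 min. RNA labelled in that window was captured on streptavidin beads and is called nascent RNA here. Every condition thus exists as nascent and as total RNA, with 2 arrays each, 1 per independent experiment. How many mice gave marrow to an experiment is not given in the sources used here, and p-values measure the spread between these 2 experiments.

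Cholesterol synthesis is controlled by a feedback loop. Srebf2 encodes SREBP-2, a transcription factor held in the endoplasmic reticulum while sterols are plentiful. When sterols fall, SREBP-2 travels to the Golgi, is cut, and activates genes of cholesterol synthesis and uptake, among them those for the enzymes described here, Insig1 and Srebf2 itself. The INSIG proteins hold the SREBP escort protein SCAP in the endoplasmic reticulum and so restrain the loop. CH25H makes 25-hydroxycholesterol, an oxysterol that binds INSIG proteins, blocks SREBP processing and has antiviral activity. Ch25h is known in macrophages as a gene induced by Toll-like receptor ligands and interferons.

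After LPS, Ch25h, Idi1 and Cyp51 rose in nascent RNA at both times and in total RNA at 270 min. Ch25h changed most, by 4.51 ± 0.39 on the log2 scale (limma's standard error, SE, n = 2 per group) in nascent RNA at 270 min. At 45 min none of these 3 passed in total RNA, and for Idi1, whose nascent RNA had risen 4.7-fold, the difference between the nascent and total responses itself passed. Insig1 nascent RNA fell between 45 and 270 min. Srebf2, Hmgcs1, Insig2 and Sqle passed no test of a change over time with all arrays, all genes and no block for the experiment, and the settings under which some did are given with each gene. In nascent RNA at 45 min, limma called 3 of 8 genes higher and 0 lower (0 lower at an unadjusted p under 0.05 too), where 3.05% of all genes were called higher, 5.88% lower and 8.93% either way. The median change of the 8 was 0.57, against 0.11 over all genes. At 270 min it called 3 higher and 0 lower (2 lower at an unadjusted p under 0.05) in nascent RNA, where 8.87% of all genes were higher, 14.2% lower and 23% called either way, and the medians were 0.66 for the 8 and 0.12 for all genes. In total RNA 0 of 8 were called at 45 min (2 at an unadjusted p under 0.05), where 0.682% of all genes were, 0.662% higher and 0.0201% lower, with medians of 0.23 for the 8 and -0.01 for all genes. In total RNA at 270 min 3 were higher and 0 lower (1 lower at an unadjusted p under 0.05), against 7.02% higher, 12% lower and 19% either way over all genes, with medians of 0.7 for the 8 and 0.07 for all genes. With the experiment as a block, 6 of the 8 were called at 270 min in nascent RNA and 6 in total RNA, where 27.9% and 23.6% of all genes were. Shares and medians over all genes, here and below, include dim genes, and medians without these are given at the end. All shares are at an adjusted p under 0.05. None was taken at an unadjusted p, so counts at an unadjusted p cannot be set against them.

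**Figure D1:**
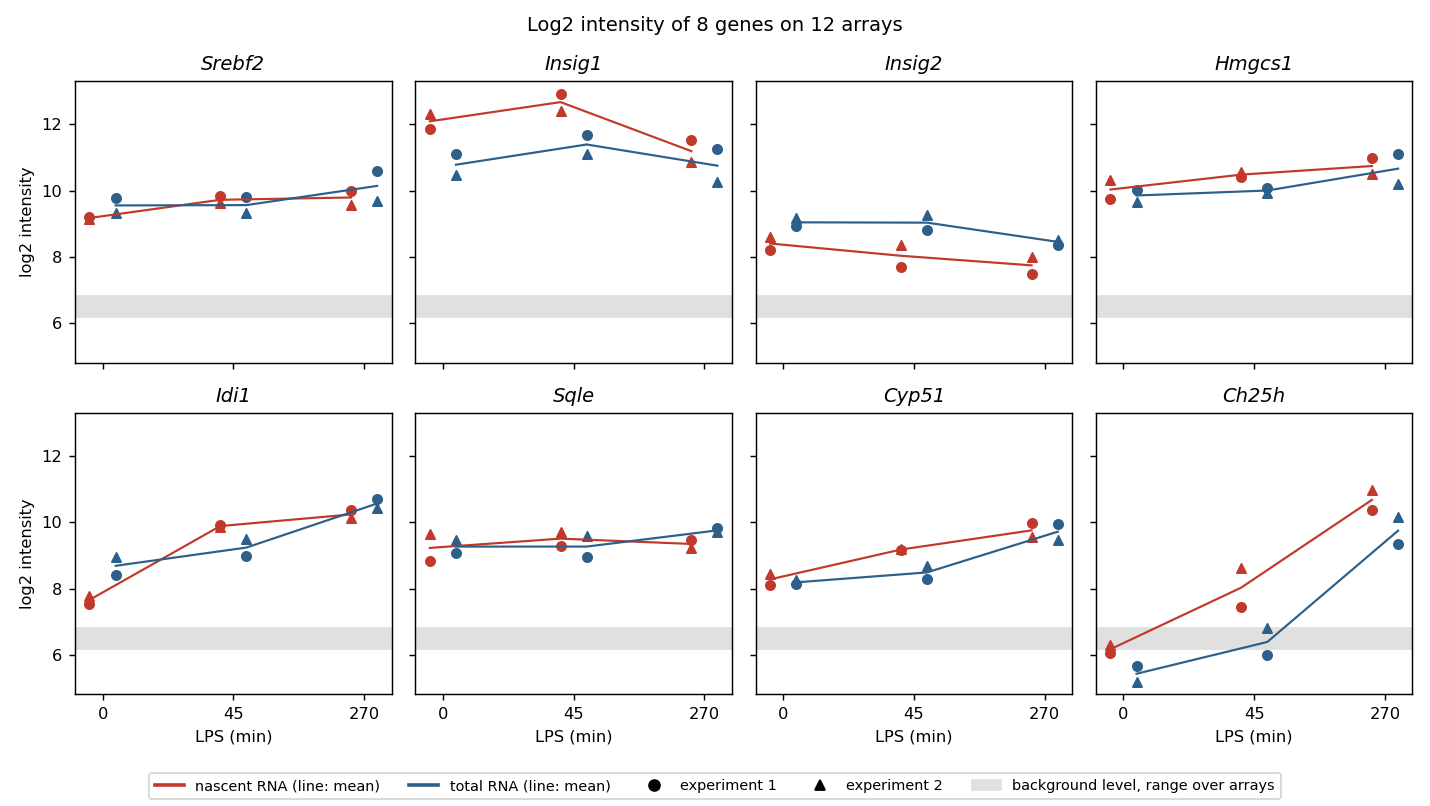
Log2 intensity of the 8 genes on each array, with minutes of LPS on the horizontal axis (evenly spaced, not to scale), nascent RNA in red and total RNA in blue. Lines join means of 2 arrays, circles and triangles are experiments 1 and 2, and the grey band spans the background level of the 12 arrays, 6.18 to 6.8. Ch25h starts in or below the band and reaches 10.68 in nascent RNA at 270 min, and the other 7 genes lie above the band on all arrays.

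Replicate arrays correlated at r = 0.9806 to 0.9891 over all genes, and the log2 values of an array had an interquartile range between 2.238 and 3.016. As a background level the 95th percentile of 1027 olfactory receptor genes was taken on each array, which lay between 6.18 and 6.8. All 8 macrophage markers, Csf1r and Adgre1 among them, lay above it on every array, with summed levels (log2) of 13.86 to 14.2 in nascent RNA at 270 min, against 14.44 to 14.62 in unstimulated nascent RNA. The 2 B cell markers, the 1 erythroid marker and 4 of 7 neutrophil markers were above background on no array. Of the T cell markers Cd3e alone was above it, on all 12 arrays and at most 7.11, and of the dendritic cell markers Zbtb46 alone, on 11, with 6.79 and 6.73 in nascent RNA at 270 min, against 7.24 and 7.96 at 0 min. The neutrophil markers summed to 8.75 on both nascent arrays at 270 min, against 8.25 and 8.39 in unstimulated nascent RNA. Of the 5 mast cell and basophil markers, Cpa3, Mcpt8, Fcer1a and Gata2 were higher in experiment 2 than in experiment 1 at each time, in nascent and total RNA. Kit was too, except in nascent RNA at 270 min (7.67 in experiment 1 and 7.61 in experiment 2). Kit and Gata2 were above background on all 12 arrays. Unstimulated total RNA, for instance, had 9.24 for Mcpt8 in experiment 2 and 6.76 in experiment 1. The stromal marker Pdgfrb read 9.52 on both nascent arrays at 270 min, against 5.92 and 5.7 on unstimulated ones, and the 3 stromal markers summed to 10.09 and 10.13, against 8.42 and 8.68, while Col1a1 and Col1a2 stayed between 7.01 and 7.82 on nascent arrays. The part of these cells in the results was not tested, and in such bulk samples fewer cells of a type and less RNA per cell cannot be told apart.

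Promoter sequences are shown because several of the genes share a known regulator, SREBP-2, and moved differently here. The promoter table of RefSeq (build GRCm38.p6) held entries for 7 of the 8 genes, 1 each for 6 of them and 3 for Insig2. The 250 bases upstream of the start were searched on both strands for a sterol regulatory element written as TCACNCCAC, the CCAAT box (ATTGG on the other strand), a cyclic AMP response element (TGACGTCA), an interferon-stimulated response element (GAAA, any 2 bases, GAAA), an NF-kB site (GGGA, any 2 bases, TTCC) and an E-box (TCACGTGA). The sequences of 4 genes of the SREBP pathway and of Ch25h are shown 5′ to 3′ on the gene's strand, with matches to these letters in capitals.
Hmgcs1 (chr13:119690101-119690350, plus strand): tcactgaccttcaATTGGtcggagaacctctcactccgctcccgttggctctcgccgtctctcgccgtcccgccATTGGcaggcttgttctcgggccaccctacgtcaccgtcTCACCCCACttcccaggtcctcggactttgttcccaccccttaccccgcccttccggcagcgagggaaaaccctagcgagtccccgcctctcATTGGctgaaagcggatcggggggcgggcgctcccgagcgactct
Idi1 (chr13:8885356-8885605, plus strand): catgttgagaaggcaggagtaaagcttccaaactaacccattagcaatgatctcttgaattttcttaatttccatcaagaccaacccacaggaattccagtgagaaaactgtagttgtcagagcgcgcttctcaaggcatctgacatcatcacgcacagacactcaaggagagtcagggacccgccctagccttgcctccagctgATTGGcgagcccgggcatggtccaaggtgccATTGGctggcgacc
Cyp51 (chr5:4104698-4104947, minus strand): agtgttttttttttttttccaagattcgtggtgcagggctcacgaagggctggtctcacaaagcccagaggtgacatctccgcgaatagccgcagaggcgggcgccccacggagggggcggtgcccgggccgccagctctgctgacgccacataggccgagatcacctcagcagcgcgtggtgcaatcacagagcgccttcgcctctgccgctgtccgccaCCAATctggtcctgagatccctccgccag
Insig1 (chr5:28071162-28071411, plus strand): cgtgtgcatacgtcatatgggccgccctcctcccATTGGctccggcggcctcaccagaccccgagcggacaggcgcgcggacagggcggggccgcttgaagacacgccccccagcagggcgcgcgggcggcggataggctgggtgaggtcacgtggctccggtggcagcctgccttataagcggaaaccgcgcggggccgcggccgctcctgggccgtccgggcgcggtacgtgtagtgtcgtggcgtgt
Ch25h (chr19:34475149-34475398, minus strand): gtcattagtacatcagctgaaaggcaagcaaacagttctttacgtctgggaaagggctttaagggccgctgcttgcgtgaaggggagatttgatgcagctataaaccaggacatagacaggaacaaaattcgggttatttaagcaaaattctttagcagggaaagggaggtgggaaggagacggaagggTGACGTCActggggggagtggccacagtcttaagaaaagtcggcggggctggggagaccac
Hmgcs1 held the sterol element from 137 bases before the start, a match that 1.1% of 32851 promoter entries have, and 3 CCAAT boxes. Idi1 held 2 CCAAT boxes and Cyp51 and Insig1 1 each, as 33.8% of all entries hold at least 1. Of the genes not shown, Srebf2 held 1 CCAAT box. For Insig2, 1 of the 3 entries held 3 CCAAT boxes and the others held no match. Ch25h held neither a sterol element nor a CCAAT box: its single match was the cyclic AMP response element, 61 bases before the start, found in 1.5% of entries. The interferon (3.0% of entries), NF-kB (1.2%) and E-box (0.785%) letters matched in none of the windows of the 7 genes. A match describes letters only, and a missing match says only that these letters are not in this window.

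Srebf2 (chr15:82147269-82205379 in GRCm38.p6, as for the gene positions that follow) encodes SREBP-2, and its differences were small. In nascent RNA it read 9.19 and 9.14 at 0 min, 9.82 and 9.62 at 45 min, and 10.0 and 9.57 at 270 min in experiments 1 and 2. All stimulated values lay above both unstimulated ones, by 0.55 ± 0.29 at 45 min (adjusted p = 0.282 with limma) and 0.62 ± 0.29 at 270 min (limma, adjusted p = 0.148). With the experiment as a block, the limma call at 270 min was made (adjusted p = 0.0299). In total RNA Srebf2 read 9.78 and 9.32 at 0 min, 9.81 and 9.32 at 45 min, and 10.59 and 9.69 at 270 min. The groups overlapped, and the change at 270 min was 0.81 in experiment 1 and 0.37 in experiment 2. It was 0.59 ± 0.29 over both (limma, adjusted p = 0.201, and 0.0424 with the experiment as a block). Leaving out total RNA at 270 min of experiment 2 gave 1.04 (limma, adjusted p = 0.0353), and 1.03 against 45 min (limma, adjusted p = 0.0412), where both arrays gave 0.57. A second probe set that also lists Srebf2 carries several gene names and was not used.

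Insig1 (chr5:28071412-28078662) and Insig2 (chr1:121304353-121332662) encode paralogous retention proteins of the endoplasmic reticulum. Insig1 read higher in nascent than in total RNA of every culture and Insig2 lower, as given below. Insig1 nascent RNA read 11.87 and 12.3 at 0 min, 12.92 and 12.41 at 45 min, and 11.53 and 10.85 at 270 min in experiments 1 and 2. The 3 times did not overlap: 45 min was highest and 270 min lowest. Nascent Insig1 averaged 11.19 at 270 min and 12.67 at 45 min, and so fell by 1.48 (SE 0.35, limma, adjusted p = 0.00797). In that comparison 1 of the 8 genes was called lower and 1, Ch25h, higher, where 10% of all genes were lower, 6.74% higher and 16.8% called either way. The fall was -1.23 without the 45 min nascent array of experiment 1 and -1.14 without the 270 min nascent array of experiment 2, and it was not called in either case (limma, adjusted p = 0.11 and 0.113). Against unstimulated cells the 270 min value was -0.9 ± 0.35 (limma, adjusted p = 0.0799), with -0.34 and -1.45 in experiments 1 and 2. It was called with the experiment as a block (limma, adjusted p = 0.00962) and with quantile scaling within nascent RNA (-1.1, limma, adjusted p = 0.0317).

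In total RNA Insig1 read 11.11 and 10.46 at 0 min, 11.68 and 11.1 at 45 min, and 11.25 and 10.26 at 270 min. Experiment 1 was higher than experiment 2 at each time, and the groups overlapped. The change was 0.61 at 45 min (95% confidence interval -0.14 to 1.35) and -0.03 at 270 min (-0.78 to 0.72). Between 45 and 270 min it was -0.64, and -1.13 with a call when total RNA at 270 min of experiment 1 was left out (limma, adjusted p = 0.04).

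Insig2 nascent RNA read 8.21 and 8.59 at 0 min, 7.7 and 8.36 at 45 min, and 7.48 and 7.99 at 270 min. Both 270 min values lay below both unstimulated ones, by -0.66 ± 0.27 (limma, adjusted p = 0.0945, and 0.0133 with the experiment as a block). Total RNA of Insig2 read 8.93 and 9.16 at 0 min, 8.8 and 9.26 at 45 min, and 8.37 and 8.52 at 270 min, again lowest at 270 min without overlap. The difference there was -0.59 ± 0.27 from unstimulated cells (limma, adjusted p = 0.156, and 0.0274 with the block) and -0.58 ± 0.27 from 45 min (limma, adjusted p = 0.163, and 0.0317 with the block).

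Hmgcs1 (chr13:119690351-119708260) encodes the cytosolic synthase that makes HMG-CoA, at the head of the mevalonate pathway. Its nascent RNA read 9.75 and 10.31 at 0 min, 10.41 and 10.55 at 45 min, and 10.97 and 10.51 at 270 min. Stimulated values lay above unstimulated ones, by 0.45 ± 0.29 at 45 min (limma, adjusted p = 0.378) and 0.71 ± 0.29 at 270 min (limma, adjusted p = 0.0985), and neither passed. In total RNA Hmgcs1 read 10.03 and 9.66 at 0 min, 10.07 and 9.93 at 45 min, and 11.11 and 10.2 at 270 min, highest at 270 min without overlap. That difference was 0.81 ± 0.29 from 0 min (limma, adjusted p = 0.0725, 0.0319 with the experiment as a block, and 0.0498 with genes below the median level left out). It was 1.08 in experiment 1 and 0.54 in experiment 2, and leaving out total RNA at 270 min of experiment 2 gave 1.26 (limma, adjusted p = 0.0109), and 1.11 against 45 min (limma, adjusted p = 0.0251).

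Idi1 (chr13:8885606-8892396) encodes isopentenyl diphosphate isomerase, which interconverts the 2 five-carbon building blocks of isoprenoids. Its nascent RNA read 7.53 and 7.78 at 0 min, 9.93 and 9.85 at 45 min, and 10.37 and 10.12 at 270 min in experiments 1 and 2. The 3 times did not overlap, and most of the rise was present at 45 min. Nascent Idi1 rose by 2.23 ± 0.25 at 45 min (4.7-fold, limma, adjusted p = 7.38e-05), with 2.4 and 2.07 in the 2 experiments, and by 2.59 ± 0.25 at 270 min (6.01-fold, limma, adjusted p = 3.68e-06). Between 45 and 270 min its nascent RNA differed by 0.36 (95% confidence interval -0.18 to 0.89).

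Total RNA of Idi1 read 8.41 and 8.97 at 0 min, 8.98 and 9.5 at 45 min, and 10.7 and 10.43 at 270 min. The 45 min values lay just above the unstimulated ones, and the 270 min values well above both. At 45 min the difference was 0.55 ± 0.25 and did not pass (limma, adjusted p = 1, unadjusted p = 0.0443). At 270 min Idi1 total RNA was higher by 1.87 ± 0.25 (3.67-fold, limma, adjusted p = 9.55e-05) than at 0 min and by 1.33 ± 0.25 (limma, adjusted p = 0.00165) than at 45 min. In that last comparison 3 of the 8 genes were called higher, Idi1, Cyp51 and Ch25h, where 6.64% of all genes were higher, 11.5% lower and 18.2% called either way. With the experiment as a block 5 of the 8 were called, where 23% of all genes were. The other Idi1 probe set gave values below those of the chosen one on every array, 9.7 and 9.55 in nascent RNA at 45 min, against 7.26 and 7.54 at 0 min. Both probe sets are annotated to the same transcripts. Signal of near-identical copies, or of the paralogue Idi2, cannot be told apart in such a probe set.

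Sqle (chr15:59315092-59331193) encodes squalene epoxidase, which carries out the first oxygenation on the way to sterols. Nascent RNA of Sqle read 8.83 and 9.64 at 0 min, 9.3 and 9.71 at 45 min, and 9.46 and 9.23 at 270 min. Total RNA read 9.08 and 9.46 at 0 min, 8.96 and 9.59 at 45 min, and 9.82 and 9.7 at 270 min. The nascent groups overlapped, and in total RNA both 270 min values lay above the rest. No Sqle change passed: nascent RNA differed by 0.28 at 45 min (95% confidence interval -0.35 to 0.9) and 0.11 at 270 min (-0.51 to 0.74), and total RNA by 0.5 at 270 min (-0.13 to 1.12).

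Cyp51 (chr5:4080674-4104697) encodes lanosterol demethylase, a step between lanosterol and cholesterol. Its nascent RNA read 8.11 and 8.44 at 0 min, 9.16 and 9.21 at 45 min, and 9.97 and 9.55 at 270 min, and the times did not overlap. It rose by 0.91 ± 0.24 at 45 min (limma, adjusted p = 0.0298) and by 1.48 ± 0.24 at 270 min (2.8-fold, limma, adjusted p = 0.000397). The 45 min call was lost when any 1 of the 4 nascent arrays at 0 and 45 min was left out, with values of 0.74 to 1.08 (limma, adjusted p = 0.0654 to 0.172), and with arrays centred on their medians (0.84, limma, adjusted p = 0.0669). Total RNA of Cyp51 read 8.13 and 8.25 at 0 min, 8.29 and 8.69 at 45 min, and 9.96 and 9.48 at 270 min. It stood apart at 270 min, 1.53 ± 0.24 higher than at 0 min (2.89-fold, limma, adjusted p = 0.000401), with 1.82 and 1.24 in the 2 experiments, and 1.23 ± 0.24 higher than at 45 min (limma, adjusted p = 0.00222).

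Ch25h (chr19:34473783-34475148) had the largest changes of the 8 genes at 270 min, while nascent Idi1 changed more at 45 min. Nascent Ch25h RNA read 6.05 and 6.3 at 0 min, 7.46 and 8.61 at 45 min, and 10.37 and 10.99 at 270 min. The times did not overlap, and only 1 of the 2 unstimulated arrays was above background. The rise was 1.86 ± 0.39 at 45 min (limma, adjusted p = 0.00916), with 1.4 and 2.31 in the 2 experiments, and 4.51 ± 0.39 at 270 min (22.7-fold, limma, adjusted p = 1.56e-06). Between 45 and 270 min nascent Ch25h rose by a further 2.65 ± 0.39 (6.27-fold, limma, adjusted p = 0.000232). The 45 min call was lost when nascent RNA of experiment 2 was left out at 0 min (1.98, limma, adjusted p = 0.0586) or at 45 min (1.28, limma, adjusted p = 0.135).

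Total RNA of Ch25h read 5.67 and 5.19 at 0 min, 5.99 and 6.8 at 45 min, and 9.34 and 10.16 at 270 min. Both unstimulated arrays lay under the background level and 1 of the 45 min arrays lay above it. At 45 min the difference did not pass (limma, adjusted p = 1, unadjusted p = 0.0283). No least fold is given for 45 min, because 1 of the 2 arrays there was under background as well. Taken against the background level on the unstimulated arrays, total Ch25h at 270 min was at least 11.1-fold higher than in unstimulated cells. The difference of the measured levels was 4.31 ± 0.39 (limma, adjusted p = 3.74e-06). From 45 to 270 min it rose by 3.35 ± 0.39, with 3.35 and 3.36 in the 2 experiments (limma, adjusted p = 4.1e-05).

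**Figure D2:**
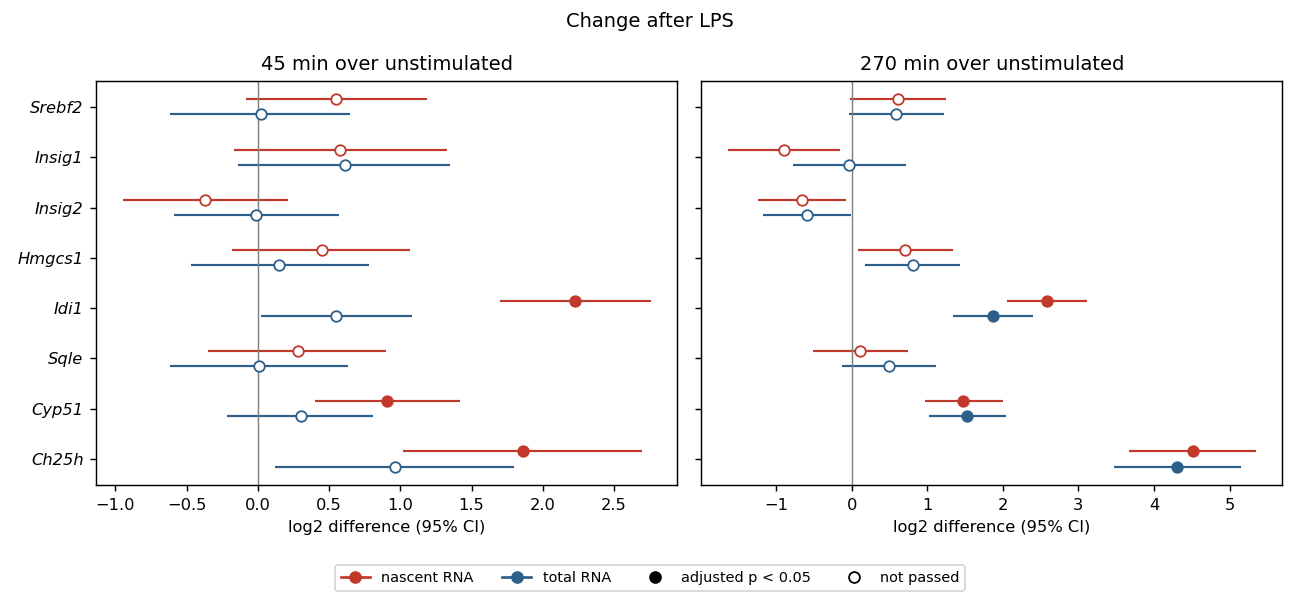
Log2 difference of 45 min (left) and 270 min (right) of LPS from unstimulated cells for each gene, with limma's 95% confidence interval, nascent RNA in red and total RNA in blue. Filled points passed an adjusted p of 0.05. At 45 min Idi1, Cyp51 and Ch25h pass in nascent RNA and none of the 8 does in total RNA, and at 270 min the same 3 genes pass in both.

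Whether nascent and total RNA responded alike was tested on nascent minus total RNA within each culture. At 0 min the nascent and total arrays of a culture did not deviate together over all genes (r = -0.055), against 0.175 and 0.419 at 45 and 270 min, so the pairing at 0 min rests on the labels. At 45 min this difference between responses passed for 1 of 8 genes, Idi1, where 1.04% of all genes did, 0.476% with the larger and 0.567% with the smaller nascent response. Nascent minus total RNA of Idi1 was 0.65 at 45 min, against -1.04 at 0 min, so the nascent response was larger by 1.69 ± 0.3 (limma, adjusted p = 0.00926), with 1.83 and 1.54 in experiments 1 and 2. That call was lost without the 45 min culture of either experiment (1.38 and 1.99, limma, adjusted p = 0.3 and 0.177) and when all arrays were fitted without pairing by culture (1.69, limma, adjusted p = 0.15). For Ch25h the test of this difference did not pass (limma, adjusted p = 0.205, and 0.0246 without the unstimulated culture of experiment 2), and no size is given because both unstimulated total arrays and 1 unstimulated nascent array lay under background. For Cyp51 the difference was 0.61 (0 to 1.22). At 270 min limma called 0 of 8 responses different (2 at an unadjusted p under 0.05), where 0.843% of all genes were called. From 45 to 270 min it again called 0 of 8, where 3.2% of all genes were called and 1.8% were lower. At an unadjusted p under 0.05, 5 of the 8 responses differed, all lower in nascent RNA. The share of all genes at that threshold was not taken, so this count has nothing to be set against. At 270 min the Insig1 response was lower in nascent RNA by -0.87 ± 0.28 and did not pass (limma, adjusted p = 0.278). It was -1.41 without the unstimulated culture of experiment 1, a fit with 1 culture left at 0 min.

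Nascent and total RNA of the same cultures also differed within a time, on the scale of each gene's own probe set. All nascent arrays were made from 100 ng of RNA and all total arrays from 200 ng, so input and kind of RNA cannot be told apart in these comparisons. In unstimulated cells 2 of the 8 genes were higher and 2 lower in nascent than in total RNA, where 7.58% of all genes were higher, 8.42% lower and 16% called either way. Insig1 was higher in nascent RNA by 1.3 ± 0.2 (12.09 in nascent and 10.78 in total RNA, limma, adjusted p = 0.000105), with 0.76 and 1.84 in experiments 1 and 2, and with a call from either alone. Idi1 was lower, at 7.66 in nascent and 8.69 in total RNA (-1.04 ± 0.21, limma, adjusted p = 0.00154). Insig2 was lower too, at 8.4 in nascent and 9.04 in total RNA (-0.64 ± 0.21, limma, adjusted p = 0.042). Ch25h, at 6.17 in nascent and 5.43 in total RNA, was close to or under background in both. The Insig2 call at 0 min was lost without either culture (-0.57 and -0.71, limma, adjusted p = 0.196 and 0.0693) and that of Ch25h without the culture of experiment 2 (0.38, limma, adjusted p = 0.513).

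At 45 min 4 of the 8 were higher in nascent RNA and 1 lower, where 11.2% of all genes were higher, 14.2% lower and 25.4% called either way. Ch25h was higher by 1.64 ± 0.22 (limma, adjusted p = 1.44e-05) and Insig1 by 1.28 ± 0.2 (limma, adjusted p = 6.56e-05), with Insig1 at 1.24 and 1.31 in the 2 experiments. Cyp51 (0.7 ± 0.21) and Idi1 (0.65 ± 0.21) were higher too, but neither was called without the culture of experiment 1 (0.52 and 0.34) or of experiment 2 (0.87 and 0.95). Insig2 was lower (-1 ± 0.21, limma, adjusted p = 0.00125), and was not called without the culture of experiment 1 (-0.9, limma, adjusted p = 0.0702). At 270 min 1 was higher and 1 lower, where 6.24% of all genes were higher, 9.03% lower and 15.3% called either way. These were Ch25h (0.93 ± 0.22, limma, adjusted p = 0.00598), not called without the 270 min culture of experiment 1 (0.84), and Insig2 (-0.71 ± 0.21, limma, adjusted p = 0.0254), not called without either culture (-0.53 and -0.89). Insig1, higher in nascent RNA at the earlier times, differed by 0.43 ± 0.2 at 270 min and did not pass (limma, adjusted p = 0.175). Insig2 and Ch25h at 0 and 270 min, and Cyp51 and Idi1 at 45 min, were not called when arrays were fitted without pairing by culture (limma, adjusted p = 0.0535 to 0.305). With arrays centred on their medians Insig2 at 0 min and Cyp51 and Idi1 at 45 min were not called (limma, adjusted p = 0.0808 to 0.126). Insig1 and Insig2 lay on opposite sides of 0 in all 6 cultures.

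**Figure D3:**
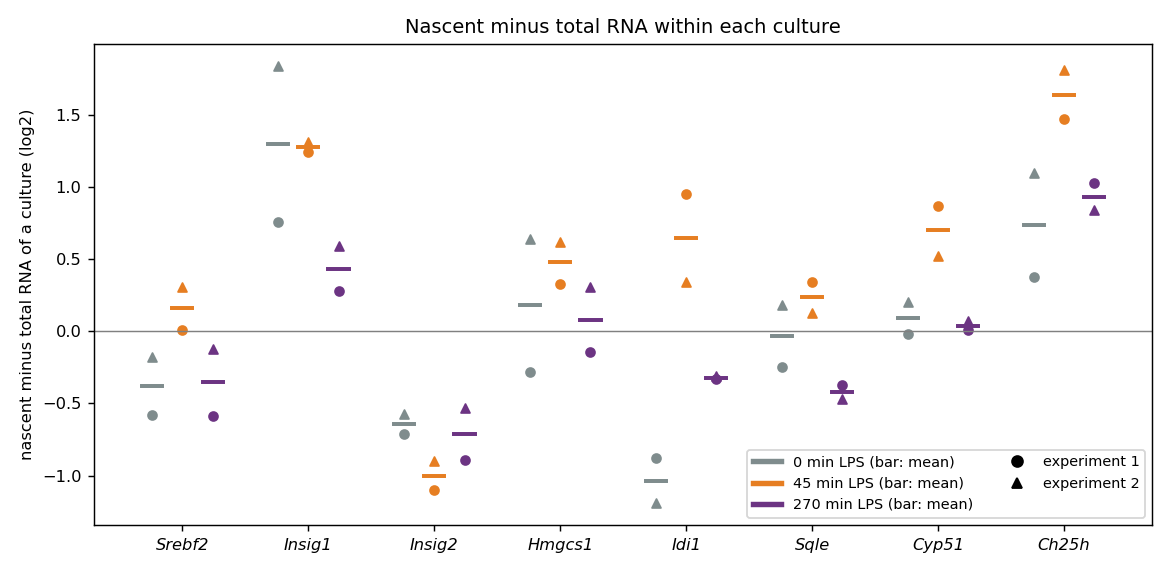
Nascent minus total RNA (log2) of each culture for the 8 genes at 0, 45 and 270 min of LPS, with circles and triangles for experiments 1 and 2 and bars for their mean. Insig1 lies above 0 and Insig2 below 0 in every culture, and Idi1 lies below 0 at 0 min and above it at 45 min.

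The rest of the pathway was read from 4 lists. Besides the 8 genes, these held 14 measured enzymes of cholesterol synthesis, 5 genes of SREBP processing and sterol sensing, 7 of cholesterol uptake, lysosomal release and storage, and 5 of oxysterol metabolism. The other synthesis enzymes did not move as one. At 270 min 3 of the 14 had risen and 2 had fallen in nascent RNA, with a median change of 0.02, against 8.87% higher, 14.2% lower and a median of 0.12 over all genes. The share that fell was thus near that of all genes, dim ones included. With genes below the median level left out, the median over the remaining genes was -0.22, below that of the 14. Sc5d, a late-step desaturase, rose by 0.97 ± 0.21 (limma, adjusted p = 0.00425), and Fdft1, which makes squalene, by 0.95 ± 0.25 (limma, adjusted p = 0.0146). Hsd17b7, a sterol ketoreductase, rose by 0.76 ± 0.26 (limma, adjusted p = 0.0496), a call lost under 5 alternatives, with values of 0.51 to 0.87. Dhcr7, which carries out the last step to cholesterol, fell by 1.23 ± 0.25 (limma, adjusted p = 0.00252) and Ebp, a sterol isomerase, fell by 1.22 ± 0.23 (limma, adjusted p = 0.00137), with stimulated levels under background, at least 1.61-fold and 1.71-fold lower. Sc5d was already higher at 45 min, by 0.96 ± 0.21 (limma, adjusted p = 0.0126), the sole rise among the 14 then, and Ebp the sole fall (-1.2 ± 0.23, at least 1.82-fold lower, limma, adjusted p = 0.00522). In total RNA at 270 min 2 of 14 rose, Fdft1 (0.92 ± 0.25) and Sc5d (0.75 ± 0.21), and Dhcr7 fell (-1.5 ± 0.25, limma, adjusted p = 0.000716). Over all genes 7.02% were higher and 12% lower in that comparison. With the experiment as a block 2 of 14 rather than 1 were lower in nascent RNA at 45 min and in total RNA at 270 min. The block called 2682 of 19938 genes either way in the first of these comparisons and 23.6% in the second. Each Fdft1 call, the Sc5d calls in nascent RNA at 45 min and total RNA at 270 min, and the Ebp call at 45 min were lost without one or another single array. Without the unstimulated nascent array of experiment 1, for instance, Fdft1 was 0.75 at 270 min (limma, adjusted p = 0.0919) and Sc5d 0.82 at 45 min (limma, adjusted p = 0.0575). Without that of experiment 2, Ebp was -0.85 at 45 min (limma, adjusted p = 0.0676), and Sc5d in total RNA was 0.55 when the 0 min array of experiment 1 was left out (limma, adjusted p = 0.238).

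Among regulators, Rnf145, an ubiquitin ligase of the endoplasmic reticulum that acts on the SREBP escort, rose by 1.52 ± 0.2 in nascent RNA (limma, adjusted p = 7.64e-05) and 0.99 ± 0.2 in total RNA (limma, adjusted p = 0.00306) at 270 min. Rnf145 nascent RNA read 10.51 and 10.46 at 270 min, against 8.81 and 9.13 in unstimulated cells. Mbtps1, which encodes the protease that makes the first cut in SREBPs, fell by 1.12 ± 0.27 in nascent RNA (limma, adjusted p = 0.00726) and fell by 0.93 ± 0.27 in total RNA (limma, adjusted p = 0.0248). Leaving out the 270 min array of experiment 2 ended the Mbtps1 call in nascent (-0.91) and total RNA (-0.71), as did leaving out unstimulated total RNA of experiment 1 (-0.64). Of the 5 in this list, 2 were called higher and 1 lower at 270 min in nascent RNA, and 1 each way in total RNA (2 higher with the experiment as a block). Over all genes 8.87% were higher and 14.2% lower in nascent RNA, and 7.02% and 12% in total RNA. The other riser in nascent RNA was Rnf139, a ubiquitin ligase (1.29 ± 0.34, limma, adjusted p = 0.0145). Rnf139 was not called without nascent RNA at 0 min of experiment 1 (1) or at 270 min of experiment 2 (0.95).

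Most uptake and lysosomal genes were lower after LPS. Nascent RNA at 270 min was called lower for 5 of 7 and higher for 1, with a median of -1.2, against 14.2% lower, 8.87% higher and a median of 0.12 over all genes. Lrp1, an endocytic receptor for lipoprotein remnants, fell by 3.07 ± 0.18 (limma, adjusted p = 5.25e-08), Npc1, which exports cholesterol from lysosomes, fell by 2.59 ± 0.18 (limma, adjusted p = 2.14e-07) and Lipa, the lysosomal lipase, fell by 2.5 ± 0.19 (limma, adjusted p = 4.04e-07). Lrp1 nascent RNA read 7.29 and 7.32 at 270 min, against 10.26 and 10.5 in unstimulated cells. In total RNA 4 of 7 fell: Scarb1, a lipoprotein receptor (-1.6 ± 0.19), Npc1 (-1.59 ± 0.18), Lrp1 (-1.38 ± 0.18) and Lipa (-1.01 ± 0.19). Over all genes 12% were lower there, and a block for the experiment brought the list's count to 5 of 7. These 4 were called under each alternative at 270 min in both kinds of RNA. Mylip, a ubiquitin ligase for lipoprotein receptors, fell by 1.2 ± 0.28 in nascent RNA (limma, adjusted p = 0.00618), and was not called without the 270 min array of experiment 2 (-0.97, limma, adjusted p = 0.0838). Npc2 and Stard4 were not lower in nascent RNA at 270 min. Npc2 differed by 0.37 ± 0.25 from unstimulated cells (limma, adjusted p = 0.283). It was higher by 0.86 ± 0.25 than at 45 min (limma, adjusted p = 0.0258). That value was 0.63 without the 45 min array of experiment 2 and 0.58 without the 270 min array of experiment 1. Stard4, a cytosolic sterol carrier, rose: its nascent RNA was higher by 1.22 ± 0.22 at 45 min (limma, adjusted p = 0.00402), at 9.51 and 9.54, against 8.05 and 8.55 in unstimulated cells. At 270 min Stard4 was higher by 0.67 ± 0.22 in nascent RNA (limma, adjusted p = 0.0454), a call lost with median centring (0.66), without nascent RNA at 0 min of experiment 1 (0.42), and without that at 270 min of experiment 1 (0.53) or 2 (0.81).

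No other measured gene of the oxysterol list rose. At 270 min 2 of these 5 had fallen in nascent RNA, where 14.2% of all genes had, and 2 in total RNA, where 12% had. In total RNA the count was 3 when the experiment was a block, and 1 with quantile scaling or median centring. Cyp27a1, a mitochondrial sterol hydroxylase, fell by 2.78 ± 0.29 in nascent RNA (limma, adjusted p = 1.02e-05) and Hsd3b7, an enzyme of bile acid synthesis, fell by 1.83 ± 0.29 (limma, adjusted p = 0.000374). In total RNA Cyp27a1 fell by 1.96 ± 0.29 (limma, adjusted p = 0.000307) and Hsd3b7 fell by 0.89 ± 0.29 (limma, adjusted p = 0.0484), and Hsd3b7 was not called there under 5 alternatives (-0.57 to -0.86). Cyp7b1, which breaks down 25-hydroxycholesterol, was under background on all arrays. Gpr183, a receptor for oxysterols derived from it, read 6.41 and 6.81 in nascent RNA at 270 min, against 6.45 and 7.06 in unstimulated cells, and passed no test.

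**Figure D4:**
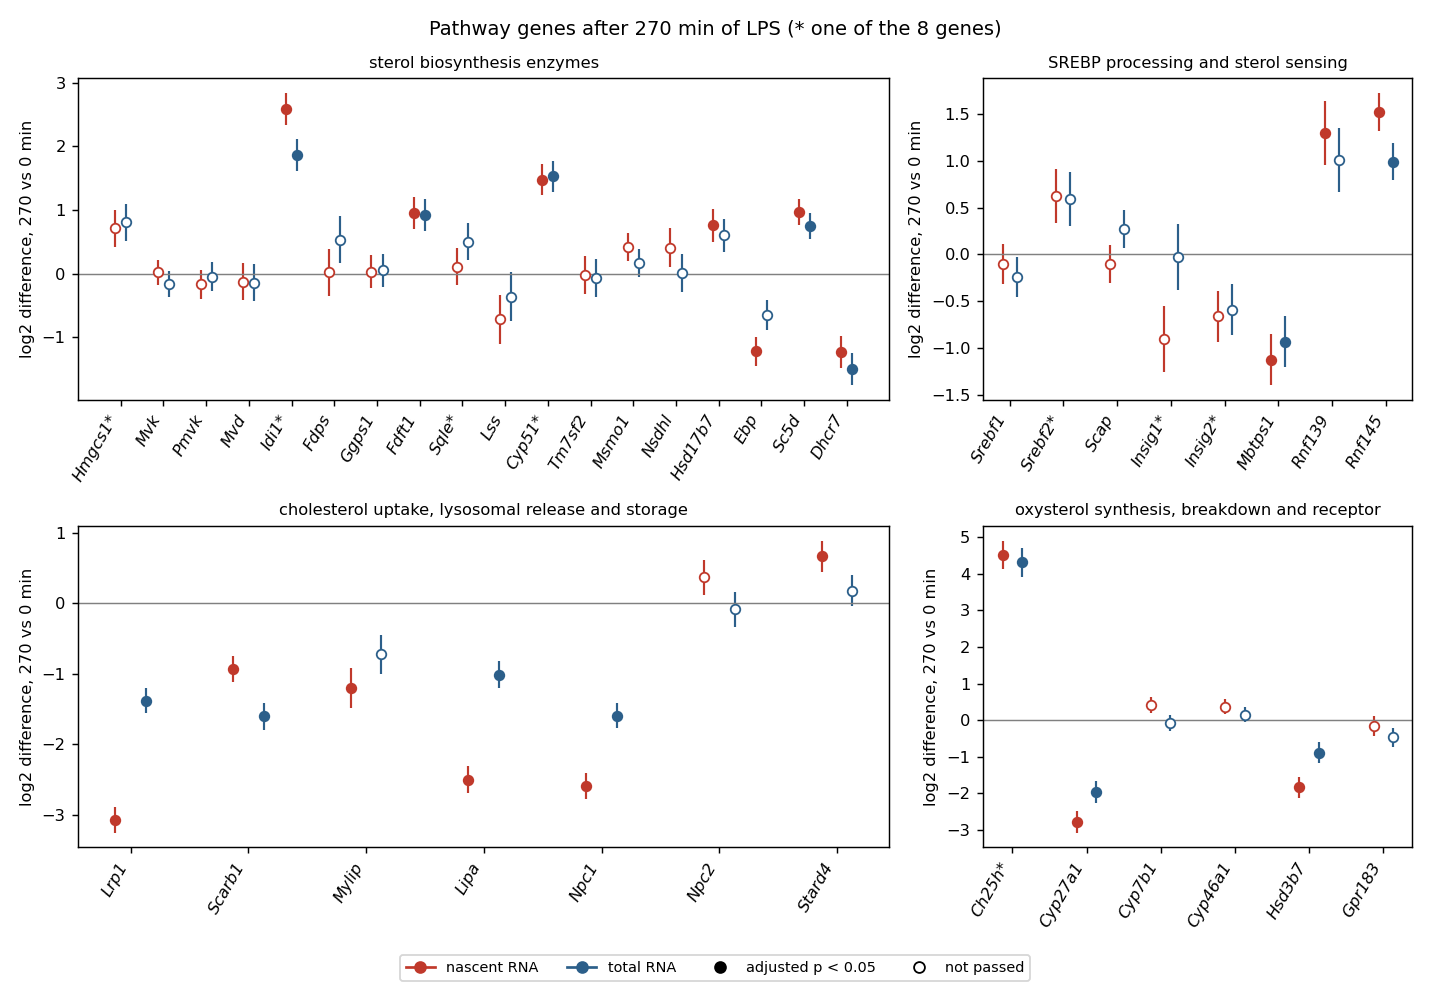
Log2 difference of 270 min of LPS from unstimulated cells, with limma's SE, for the measured genes of 4 pathway lists, nascent RNA in red and total RNA in blue, filled where the adjusted p was under 0.05. Asterisks mark the 8 genes. Lrp1, Npc1 and Lipa fall while Idi1, Cyp51 and Ch25h rise, and vertical scales differ between panels.

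Across the 12 arrays the genes most like each member, by Pearson's r among 9961 genes at or above the median level, differed from member to member. These correlations describe arrays that share culture, experiment and scaling. The nearest to Ch25h were N4bp1 (r = 0.986), Katna1 (0.981) and Slc7a11 (0.978). Cyp51 was most like Calhm6 (0.982), Lmo4 (0.98) and Stk40 (0.978). Idi1 was most like Rab12 (0.974), Gbp2b (0.969) and Sc5d (0.965). Insig1 was most like Atf4 (0.979), Arih2 (0.961) and Mafg (0.959), and Insig2 like Sec11a (0.989), Stmn1 (0.971) and Tspan13 (0.969). For Srebf2 these were Ccdc88b (0.967), H2-Q4 (0.93) and Lcp1 (0.917), for Hmgcs1 Shf (0.937), Trex1 (0.925) and Gpr141 (0.924), and for Sqle Uqcrfs1 (0.869), Tmem248 (0.868) and Strap (0.856). Among the 8, Ch25h and Cyp51 were the closest pair (0.93), while Insig2 correlated negatively with all but Sqle (-0.65 with Hmgcs1, 0.05 with Sqle).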

How the data were processed

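The arrays were Affymetrix Mouse Gene ST arrays, hybridised with random-primed, amplified RNA per the labels' protocols. The authors deposited 1 intensity per probe set, on a linear scale. The submitters' processing notes name RMA and the Affymetrix Expression Console. Their versions, and if the 12 arrays were normalised as 1 set, were not given in the sources used here. RMA hides shifts shared by all genes of an array and compresses changes of dim genes, so changes are relative to the other genes. The number of arrays limits the precision.

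The tests were planned for log2 values, so log2 of the intensities was taken. Of 35557 probe sets, 21789 carried 1 symbol, 1621 several and 12147 none in the annotation table used; symbols were checked by gene identifier against RefSeq (GRCm38.p6), which changed 0. All 19938 genes were fitted in R 4.3.3 with limma 3.58.1, with an intensity trend: a mean per group on 12 arrays (residual degrees of freedom 6, prior 7.4), or a mean per time on the 6 nascent minus total differences of a culture (3, prior 16.5). P-values were two-sided, adjusted by Benjamini-Hochberg over all genes and called under 0.05. Experiment numbers pair the arrays because the submitters describe independent experiments; deviations of same-numbered arrays correlated at r = -0.295 to 0.645 over 15 pairs of groups. The 5 pairs with unstimulated nascent RNA gave -0.295 to 0.025 and the others 0.175 to 0.645. Fits were tested on simulated data with independent noise on each array. The simulation had no shared effect of culture or experiment, so it does not test the pairing. Other steps used Python 3.11.15 with numpy 2.4.6, pandas 2.3.3 and matplotlib 3.10.9.

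If no array of the dimmer group exceeded the background level but both of the brighter group did, a bound is given. Each dim array was set to at least that level before the means were subtracted. Named genes are the 8 members, up to 4 called genes of each pathway list per comparison with the largest change, the 3 genes most like each member, and marker genes. Cyp7b1, Gpr183 and Npc2, which the rule does not name for changes of nascent or total RNA over time, were added after their values were seen. Members, lists, motifs and alternatives were chosen with earlier results of these data known, so none is independent support. Alternatives were the experiment as a block, no trend, quantile scaling, median centring, an offset of 16, leaving out dim genes, averaged probe sets and leaving out each array. The list genes were rerun under them after their values were seen.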

Additional observations from a re-analysis of the deposited data

Results flagged for a closer look

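The response of Idi1 at 45 min differed between nascent and total RNA. Nascent RNA rose by 2.23 and total RNA by 0.55 on the log2 scale, a difference of 1.69 ± 0.3 between them (limma, adjusted p = 0.00926, larger in nascent RNA in 2 of 2 experiments). The call was lost without the 45 min culture of either experiment (1.38 and 1.99) and without pairing by culture (limma, adjusted p = 0.15). The pairing at 0 min rests on the labels. With 2 arrays per group, no test for outlying samples was made.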

How the results depend on the processing

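Over 1008 recomputed values of the 8 genes, 957 kept their side of the threshold, 33 lost a call and 18 gained one. Most of the 957 were called in neither setting, and the 33 could come only from values called with all arrays. Of the called values 0 changed sign, and 38 values that were not called did. Of 583 recomputed list gene values, 65 lost the call and 0 changed sign. The median over all genes was 0.15 for nascent minus total RNA at 45 min, and 0.06 with median centring. For 270 min against unstimulated cells it was 0.12 in nascent and 0.07 in total RNA. With genes below the median level left out, these were -0.22 and -0.17, and nascent RNA at 45 min had -0.1 rather than 0.11.

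With the experiment as a replicate block, 6 of the 8 genes were called at 270 min in nascent RNA (3 without it), 6 in total RNA (3 without it) and 5 from 45 to 270 min in total RNA (3 without it); the calls gained are given beside Srebf2, Insig1, Insig2 and Hmgcs1, except Srebf2 from 45 to 270 min in total RNA (0.57, adjusted p = 0.0493). The block changed no other call of the 8 genes. Over all genes it called 2682 rather than 1781 in nascent RNA at 45 min. Without pairing by culture (no replicate block), 0 rather than 1 responses differed at 45 min, with 3 rather than 208 over all genes, 49 rather than 168 at 270 min and 184 rather than 639 between 45 and 270 min. The nascent minus total calls were then 2 at 0 min, 3 at 45 min and 0 at 270 min, rather than 4, 5 and 2. Median centring gave 3 rather than 5 at 45 min, and 125 rather than 208 differing responses over all genes, where quantile scaling gave 57, and 418 rather than 639 between 45 and 270 min.

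Leaving out 1 array gave 1 to 2 of the 8 genes called in nascent RNA at 45 min (3 with all), 1 to 2 from 45 to 270 min, 3 to 5 in total RNA at 270 min and 3 to 5 from 45 to 270 min. Leaving out 1 culture gave 0 to 2 differing responses at 45 min and 0 to 1 at 270 min, and 2 to 4, 2 to 3 and 0 to 1 nascent minus total calls at 0, 45 and 270 min. Over all genes it gave 627 to 2049 calls in nascent RNA at 45 min, 2880 to 4547 at 270 min (4595 with all) and 2137 to 2547 between them (3345). In total RNA it gave 84 to 118 at 45 min (136), 2512 to 3977 at 270 min (3787) and 2375 to 4161 between them (3626). Nascent minus total calls were 2200 to 2296 at 45 min (5060) and 1221 to 1663 at 270 min (3045), and differing responses 0 to 1730 at 45 min, 100 to 1119 at 270 min and 29 to 438 between them. The cause was not tested; a lone array also leaves fewer degrees of freedom, and is assumed to vary like the other groups. Genes near the background level, Ch25h in unstimulated cells among them, have compressed changes.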
